A study of Mus musculus with 12 samples.

Results

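The NRF2 and Bach1 antioxidant axis is described here through 10 genes, which were picked by name out of the 46078 gene identifiers that each count file lists. They are Nfe2l2, Keap1, Bach1, Nqo1, Gclm, Gclc, Txnrd1, Srxn1, Gsr and Slc7a11, and all 10 passed the filter on low counts that left 13837 genes for testing. The cells were macrophages grown from the bone marrow of male C57BL/6 mice over 7 days in medium with L929 supernatant, a source of macrophage growth factor. Every mouse lacked ApoE (ApoE-/-). The mice called Dicer KO here were labelled LysMcre/+;Dicerfl/fl;ApoE-/-, and the controls were littermates titled LysMcre/+;Dicer+/+;ApoE-/-, although another label calls them wild type. LysM-Cre is a recombinase driven from the lysozyme gene Lyz2, which is active in myeloid cells. All cultures received ethanol diluted 1:1000 overnight and then, for 6 h, either D-PBS (vehicle) or LPS, the lipopolysaccharide of bacterial outer membranes, at 100 ng/ul, as the labels give the dose. The 4 groups of 3 libraries are called control vehicle, control LPS, Dicer KO vehicle and Dicer KO LPS, and no label says that the 3 libraries of a group came from separate mice. The p-values therefore measure the spread between these libraries, which may be technical.

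NRF2, the product of Nfe2l2, is a transcription factor that pairs with a small Maf protein and binds antioxidant response elements near genes for glutathione synthesis, thioredoxin and detoxification. KEAP1 holds NRF2 in the cytoplasm and hands it to a ubiquitin ligase, and oxidants that modify KEAP1 release NRF2. BACH1 pairs with the same small Maf proteins, occupies the same elements and represses them until heme removes it. Dicer cuts precursor hairpins into mature microRNAs, which bind mRNAs through a seed, bases 2 to 8 of the microRNA, and lower their level or translation. In macrophages this axis is known for its part in the response to oxidants, heme and bacterial products.

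Levels are CPM, the counts of a gene in every 1000000 counts of a library, with library sizes adjusted by edgeR's TMM method, and tests are edgeR's quasi-likelihood test with Benjamini-Hochberg adjustment over all 13837 genes, two-sided, with an adjusted p under 0.05 named a call. The libraries held 16172600 to 18886948 counts on genes, 41.7 to 43.3% of all their counts. Replicate 3 of control vehicle and replicate 2 of Dicer KO vehicle were unlike the other libraries of their groups, with a chi-square per degree of freedom of 7.87 to 13.2 against them. Dicer1 measured 43.7 ± 1.44 CPM (SD, n = 3) in control vehicle, 49.4 ± 2.84 in control LPS, 19.7 ± 0.369 in Dicer KO vehicle and 15.5 ± 1.1 in Dicer KO LPS, so Dicer1, counted over all its exons and not only deleted ones, was lower but not absent in the libraries labelled Dicer KO. Lyz2, the locus of the Cre allele, measured 5710 ± 335 CPM with vehicle in control but 14.1 ± 1.49 in Dicer KO, 405-fold lower, and 4060 ± 200 against 18.9 ± 2.38 after LPS. A LysMcre/+ animal keeps an intact Lyz2 copy, so this level goes against the Cre genotype labelled for the Dicer KO libraries. What the Lyz2 difference adds to any result cannot be told apart from the loss of Dicer. Apoe was low in all 4 groups, with means of 1.2 to 17.9 CPM. The 7 macrophage markers other than Lyz2 summed to 6960 to 7670 CPM in control vehicle, 8550 to 8720 for control LPS, 6700 to 7590 in Dicer KO vehicle and 9210 to 9400 in Dicer KO LPS, and none was at 0 in all libraries. Single markers differed in both directions. In vehicle Fcgr1 (3.35-fold) and Cd68 (1.29-fold) were called higher in Dicer KO, and Adgre1, Csf1r, Itgam and Cd14 lower. After LPS Mertk (2.32-fold), Fcgr1 and Cd68 were called higher, and Adgre1 and Itgam lower. Of the 8 T and NK cell markers only Lck was above 0.2 CPM in any group mean, and it rose with LPS from 0.286 to 13.9 CPM in control and from 0.298 to 35.5 in Dicer KO. The 8 neutrophil markers summed to 93.8 to 134 CPM with vehicle and to 148 to 179 with LPS, and the 6 dendritic cell markers reached 17.8 CPM in Dicer KO LPS, mostly as Ccr7 and Xcr1. Of the 7 stromal markers Pecam1 rose, from 1.09 to 8.24 CPM in control and from 0.975 to 12.4 in Dicer KO. The sum of the 5 B cell markers was lower with LPS, at 1.33 to 2.11 CPM against 4.14 to 5.06 in control and at 0.827 to 1.05 against 2.32 to 4.05 in Dicer KO. That sum was mostly Cd79b, which went from 4.33 to 1.57 CPM in control and from 3.21 to 0.752 in Dicer KO. The other 4 stayed under 0.2 CPM in every group mean. Erythroid markers stayed at or under 0.376 CPM and those of mast cells and basophils at or under 1.96. Their part in the results below was not tested, and in bulk RNA fewer cells and less RNA per cell cannot be told apart.

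Matches to microRNA seeds in the 3′ UTRs are printed beside the comparison of Dicer KO with control, because mature microRNAs are what Dicer makes. Whether the matches have a part in any difference was not tested. Of the 5 microRNAs searched, which were chosen after the values were seen, the 2 with more than 1 match in a single member are shown with the seed in capitals, as RefSeq (GRCm38.p6) lists them.
miR-155-5p: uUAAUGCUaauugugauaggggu
let-7a-5p: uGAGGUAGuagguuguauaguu
Bach1 held 2 matches to each seed within 3475 bases of 3′ UTR, read from GENCODE M21 transcripts (GRCm38). They are printed 5′ to 3′ on the strand of the gene, with the bases that pair with the seed in capitals. The miR-155-5p matches lie at chr16:87732166-87732195 and chr16:87732378-87732407.
Bach1 miR-155-5p match, first: aatttctctctatgaacagtttAGCATTAa
Bach1 miR-155-5p match, second: taataatagaaatatattgcatAGCATTAt
The let-7a-5p matches lie at chr16:87731978-87732007 and chr16:87732271-87732300, between and beside the others.
Bach1 let-7a-5p match, first: cttatacaagccaatggatttcCTACCTCa
Bach1 let-7a-5p match, second: gcatgtaatacaagtaactacaCTACCTCa
The 3′ UTR of Nfe2l2, of 448 bases, held 1 miR-155-5p match at chr2:75675806-75675835 on the minus strand.
Nfe2l2 miR-155-5p match: gcaataatatgaaactttacaaAGCATTAa
Among 11757 tested genes with a 3′ UTR, 9.16% held at least 1 match to the miR-155-5p seed and 10.5% at least 1 to the let-7a-5p seed. Bach1 held 0.576 matches per kb for each of the 2 seeds, against 0.0635 per kb and 0.0741 per kb over all these 3′ UTRs. These 2 seeds are shown because a single member held more than 1 match to each, so the higher density follows from that choice. It is no measure of enrichment. For the other 3 microRNAs, miR-146a-5p had 1 match each in Bach1 and Gclc, miR-223-3p had 1 in Keap1, and miR-21a-5p had none in the 10 genes. Slc7a11 held 1 let-7a-5p match in 7364 bases, and no match to any of the 5 seeds was found in Nqo1, Gclm, Txnrd1, Srxn1 or Gsr. A match is a run of letters and not a shown binding site, and the mature microRNAs themselves were not analysed here.

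**Figure D1:**
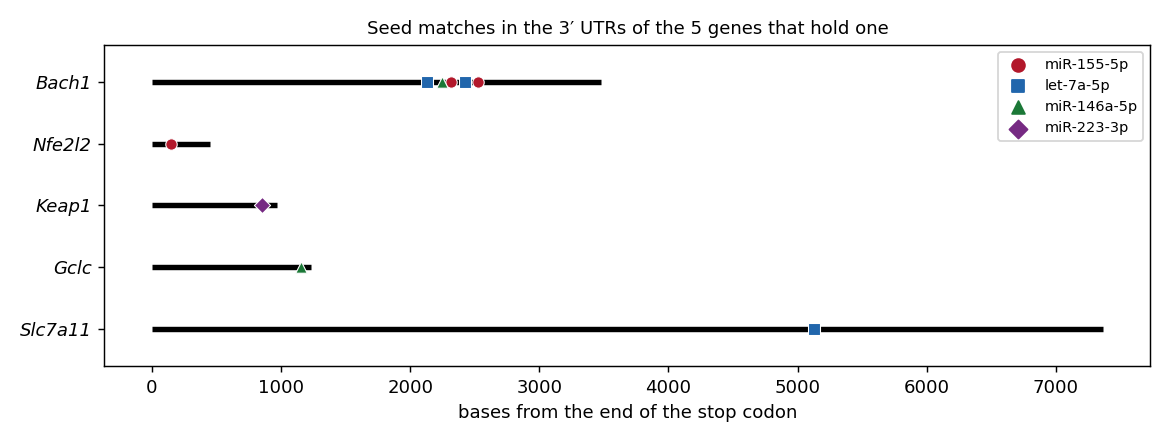
Positions of microRNA seed matches (symbols, by microRNA) along the 3′ UTRs (black bars) of the 5 genes with a match, in bases from the end of the stop codon. The 5 matches in Bach1 lie close together, between bases 2129 and 2529 of 3475, while the single match in Slc7a11 lies at base 5129 of 7364.

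The promoters were searched for the core of the antioxidant response element, TGACNNNGC on either strand, where N is any base, in windows of 300 bases (250 before to 50 after each RefSeq start, GRCm38.p6). Of 32851 such promoters 12.4% held the core, and 14% of 27025 genes held it in at least 1 promoter. Of the 8 members with an entry in the table, Nfe2l2, Gclm, Txnrd1 (1 of 3 promoters) and Srxn1 held 1 match each. Gclc and Gsr were not listed. A match to the core is a run of letters and not a shown binding site. These 4 matches are printed with the core in capitals and 10 bases on each side, 5′ to 3′ on the strand of the gene. They lie at chr2:75704885-75704913 (minus strand), chr3:122245413-122245441, chr10:82859104-82859132 and chr2:152105542-152105570.
Nfe2l2: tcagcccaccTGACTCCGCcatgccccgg
Gclm: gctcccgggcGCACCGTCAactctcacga
Txnrd1: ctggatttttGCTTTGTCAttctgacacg
Srxn1: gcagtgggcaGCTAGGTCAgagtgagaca
The cores of Gclm, Txnrd1 and Srxn1 read on the opposite strand. Starting points were 240, 134 and 92 bases upstream of the start in Nfe2l2, Gclm and Txnrd1, and 28 bases downstream of it in Srxn1. No core was found in the windows of Keap1, Bach1, Nqo1 and Slc7a11, which says nothing of elements farther away.

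In vehicle, 7 of the 10 genes were higher in Dicer KO than in control and none was called lower, with a median log2 fold change of 0.395 against 0.008 over all tested genes. Over all tested genes 46.2% were called in this comparison, 25.0% higher and 21.2% lower. After LPS, 4 of the 10 were higher in Dicer KO and 2 were lower, with a median of 0.152 against -0.026, where 55.8% of all genes were called, 28.8% higher and 27.0% lower. LPS against vehicle called all 10 genes in each genotype, 5 higher and 5 lower in both. The share of all genes called was 79.1% in control (38.0% higher, 41.1% lower) and 80.1% in Dicer KO (37.4% higher, 42.7% lower), so that counts near 10 of 10 were not far from the background. The members' median LPS response was -0.146 in control and 0.186 in Dicer KO, against -0.056 and -0.102 over all genes. The 2 LPS responses differed between genotypes in 7 of the 10 genes, where Bach1 was the single member with a positive difference and 6 had a negative one. The background for that difference was 33.7%, with 14.9% positive and 18.8% negative. Scaled to library totals in place of TMM sizes, the members' split was 2 higher and 6 lower for Dicer KO against control after LPS and 3 higher and 5 lower for LPS in Dicer KO. The medians over all genes then stood at -0.118 and -0.378 for the genotype in vehicle and LPS, at -0.577 and -0.848 for LPS in control and Dicer KO, and at -0.269 for their difference.

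**Figure D2:**
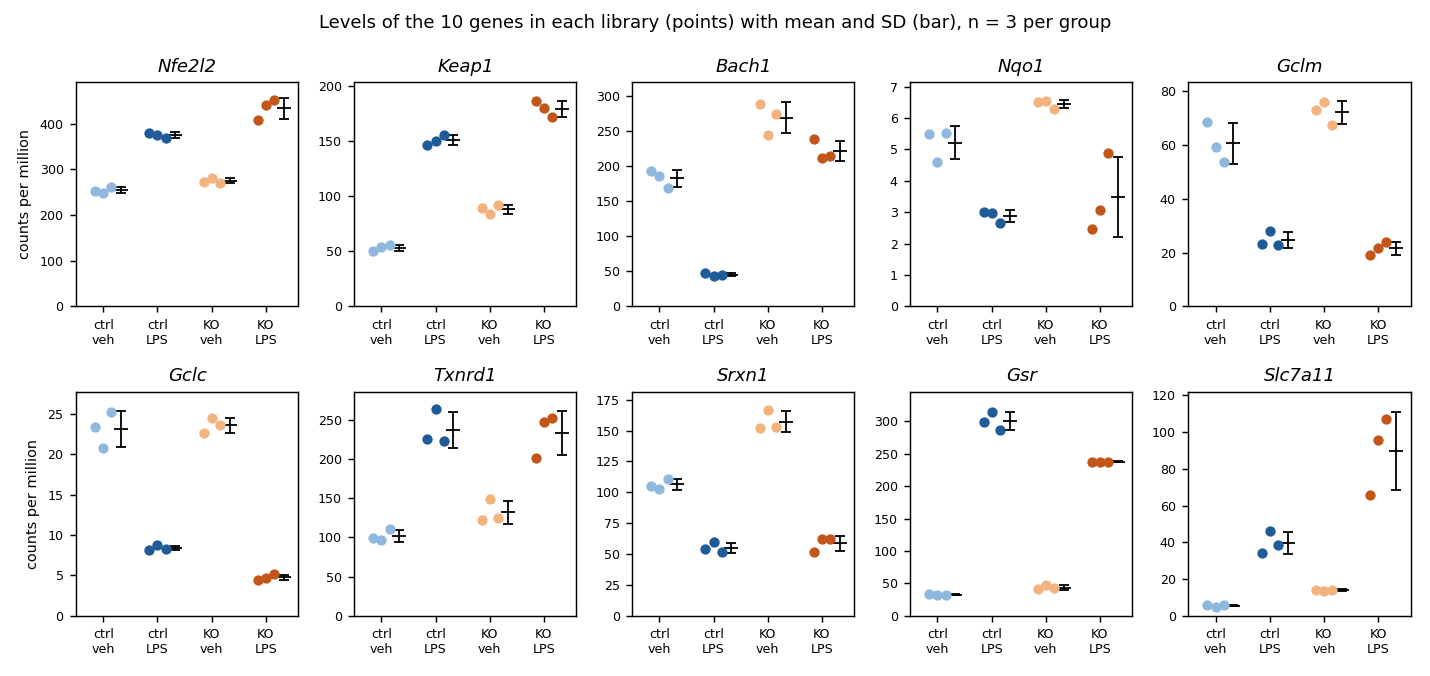
CPM (vertical axes, from 0) of the 10 genes in control (ctrl) and Dicer KO (KO) macrophages with vehicle (veh) or LPS; points are libraries and bars the mean and SD, n = 3. Bach1 was lowest in control LPS (43.2 to 47.6), while Gsr was high with LPS in both genotypes (237 to 315).

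Nfe2l2 (chr2:75675513-75704641, minus strand; this and the following gene positions are protein-coding genes of GENCODE M21 on GRCm38) encodes NRF2. Its level was 253, 248 and 261 CPM in control vehicle, 380, 376 and 368 in control LPS, 273, 282 and 271 in Dicer KO vehicle, and 408, 441 and 452 in Dicer KO LPS. Both LPS groups lay above both vehicle groups, and the genotypes did not overlap under either treatment. LPS raised Nfe2l2 by 0.56 ± 0.05 on the log2 scale in control (SE, edgeR adjusted p = 7.59e-09) and by 0.65 ± 0.05 in Dicer KO (adjusted p = 7.21e-10). With library totals these values became 0.037 (adjusted p = 0.473) and -0.094, the second of them turned in sign, with the median of all genes shifted as above. Between genotypes the difference was 0.12 ± 0.05 in vehicle (adjusted p = 0.0712) and 0.21 ± 0.05 after LPS (adjusted p = 0.00169, turned to -0.143 with library totals). The vehicle difference passed the threshold in DESeq2 (adjusted p = 0.0441) and, in edgeR, when replicate 3 of control vehicle (0.042) or replicate 1 of Dicer KO LPS (0.0493) was left out, while library totals turned it to -0.011. The LPS responses of Nfe2l2 differed by 0.10 ± 0.07 between genotypes, with an adjusted p of 0.338.

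Keap1 (chr9:21229730-21239361, minus strand), whose product retains NRF2, was higher in Dicer KO and higher with LPS. The control libraries measured 50.5, 54.1 and 55.9 CPM in vehicle and 147, 150 and 156 in LPS. The Dicer KO libraries measured 89.0, 83.9 and 92.0 CPM in vehicle and 187, 180 and 172 in LPS. No 2 of the 4 groups overlapped, and their order was control vehicle, Dicer KO vehicle, control LPS and Dicer KO LPS. Keap1 was 1.65-fold higher in Dicer KO in vehicle (adjusted p = 9.05e-09) but 1.19-fold higher after LPS (adjusted p = 0.00062), which turned to a log2 value of -0.102 with library totals. LPS raised it 2.82-fold in control and 2.03-fold in Dicer KO, and the 2 responses differed by -0.47 ± 0.08 on the log2 scale (adjusted p = 0.000132). Exons of Gm16754 on the opposite strand overlap 10.9% of the exon bases of Keap1. Gm16754, named here only for that overlap, measured 21.4 ± 1.01, 58.1 ± 1.88, 29.3 ± 2.66 and 67.8 ± 1.71 CPM in control vehicle, control LPS, Dicer KO vehicle and Dicer KO LPS, the same order as Keap1. The strand setting of the counting is not given in the sources used here, so reads of this overlap may be shared between both genes.

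Bach1 (chr16:87698945-87733346, plus strand), the repressor of the axis, had the largest difference between genotypes of the 10 genes after LPS. With vehicle it measured 192, 186 and 168 CPM in control and 288, 244 and 274 in Dicer KO. After LPS it measured 47.6, 43.2 and 44.0 CPM in control but 238, 211 and 214 in Dicer KO. In CPM with TMM sizes the Dicer KO libraries with LPS thus stood above the control libraries with vehicle, and control LPS stood far below all others. The first of these orders depends on the scaling. Raw Bach1 counts were 4734, 4560 and 4010 in control vehicle and 3164, 2812 and 2841 in Dicer KO LPS. These libraries held 18552400 to 18886948 and 18671876 to 18785476 counts on genes, so against library totals Dicer KO LPS stood below control vehicle. LPS lowered Bach1 4.05-fold in control (log2 -2.02 ± 0.07, adjusted p = 1.19e-14) and 1.22-fold in Dicer KO (log2 -0.28 ± 0.07, adjusted p = 0.000933). The difference of these responses was 1.73 ± 0.10 on the log2 scale (adjusted p = 2.1e-09), and 193 of the 13837 tested genes, 1.39%, had a larger one. Dicer KO exceeded control 1.48-fold in vehicle (adjusted p = 2.51e-06) and 4.92-fold after LPS (log2 2.30 ± 0.08, adjusted p = 1.33e-13), a value exceeded by 88 genes, 0.636%. All 5 Bach1 calls were made under every alternative that was fitted, with the same direction. The size of the fall with LPS in Dicer KO depends on the scaling. Dicer KO vehicle held 6195, 4745 and 5871 raw Bach1 counts in libraries of 16172600 to 18084877 counts on genes. Against library totals this fall was therefore larger than 1.22-fold.

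The host transcript of the microRNA whose seed matches are printed above, Mir155hg, was looked up after these values were seen. It measured 0.0809, 0 and 0 CPM in control vehicle and 0.233, 0.103 and 0.0933 in Dicer KO vehicle, or at most 5 counts in a library (log2 2.15 ± 0.78, adjusted p = 0.0333). With LPS the level was 70.7, 74.9 and 74.9 CPM in control and 80.1, 76.1 and 74.4 in Dicer KO. The genotype difference after LPS was 0.06 ± 0.07 on the log2 scale and missed the threshold (adjusted p = 0.439), and the host transcript does not measure the mature microRNA that Dicer would make from it.

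Set per kb of exon, the level of Bach1 over that of Nfe2l2 was 0.439 ± 0.0394 in control vehicle, 0.0736 ± 0.00323 in control LPS, 0.6 ± 0.0602 in Dicer KO vehicle and 0.314 ± 0.0377 in Dicer KO LPS (SD, n = 3). The 4 groups did not overlap in this ratio. It was lower with LPS in both genotypes, at 0.0705 to 0.0769 against 0.394 to 0.465 in the control libraries and at 0.291 to 0.358 against 0.533 to 0.648 in those of Dicer KO. Over the length of the longest transcript in place of all exons, the means were 0.302, 0.0505, 0.412 and 0.216, in the same order of groups.

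**Figure D3:**
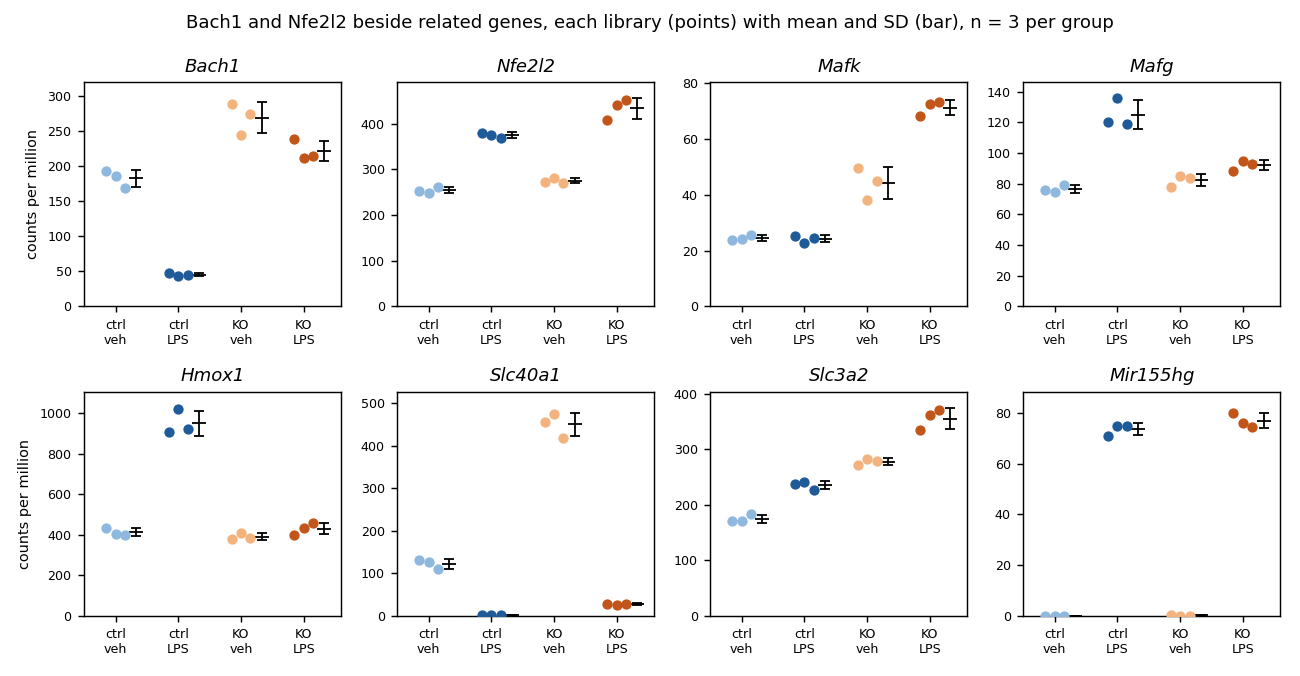
CPM (vertical axes, from 0) of Bach1, Nfe2l2 and 6 related transcripts in control (ctrl) and Dicer KO (KO) macrophages with vehicle (veh) or LPS; points are libraries and bars the mean and SD, n = 3. Bach1 fell to 43.2 to 47.6 in control LPS, the group where Hmox1 was highest (905 to 1020) and Slc40a1 lowest (1.3 to 1.7), while Mir155hg lay between 70.7 and 80.1 in both LPS groups.

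The small Maf partners, which both NRF2 and BACH1 need for binding DNA, had a pattern each. Mafk measured 24.4 ± 1.03 CPM in control vehicle, 24.2 ± 1.25 in control LPS, 44.2 ± 5.76 in Dicer KO vehicle and 71.3 ± 2.75 in Dicer KO LPS. It was 1.81-fold higher in Dicer KO in vehicle (adjusted p = 8.42e-08) and 2.94-fold higher after LPS (adjusted p = 2.61e-11). Mafg stood at 125 ± 9.58 CPM in control LPS but at 92.1 ± 3.44 in Dicer KO LPS, 1.36-fold lower (adjusted p = 4.27e-06), and at 76.5 ± 2.36 and 82.4 ± 3.8 in the control and Dicer KO vehicle groups. Maff, at 15.3 CPM in control LPS and 9.4 in Dicer KO LPS, was lower in Dicer KO by 0.70 ± 0.14 on the log2 scale after LPS (adjusted p = 0.00023). Cul3, the ligase scaffold that works with KEAP1, was higher with LPS in control (log2 0.79, adjusted p = 5.62e-12) and Dicer KO (0.77, adjusted p = 8.01e-12, but 0.023 and 0.624 with library totals). Of the 15 tested regulators and partners of NRF2 listed beside the members, 7 were higher and 1 lower in Dicer KO in vehicle, and 7 higher and 3 lower after LPS, where library totals gave 4 and 3, and 3 and 9. The medians were 0.137 and 0.097, against 0.008 and -0.026 over all tested genes. Of those, 25.0% were higher and 21.2% lower in vehicle with TMM sizes, and 28.8% and 27.0% after LPS.

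The NRF2 targets begin with the supply of cystine. Slc7a11 (chr3:49892526-50443614, minus strand) encodes the light chain of the cystine/glutamate exchanger, which brings in the precursor for glutathione. In vehicle its level was 6.07, 5.01 and 5.68 CPM in control and 14.1, 13.4 and 14.3 in Dicer KO. LPS brought it to 34.4, 46.2 and 38.3 CPM in control and to 65.9, 95.8 and 107 in Dicer KO. No groups overlapped, and Dicer KO LPS had the widest spread, from its replicate 1 at 65.9 to its replicate 3 at 107. Dicer KO exceeded control 2.49-fold in vehicle (log2 1.32 ± 0.22, adjusted p = 0.000692) and 2.26-fold after LPS (log2 1.18 ± 0.16, adjusted p = 0.000103). The increase with LPS was 7.09-fold in control and 6.44-fold in Dicer KO (adjusted p = 1.75e-07 and 7.4e-08). These responses differed by -0.14 ± 0.28 on the log2 scale (adjusted p = 0.745), and by 0.037 without Dicer KO LPS replicate 1. Slc3a2, the heavy chain that pairs with it, was 175 ± 7.03 CPM in control vehicle, 236 ± 7.54 in control LPS, 277 ± 5.94 in Dicer KO vehicle and 355 ± 18.9 in Dicer KO LPS. It was 1.59-fold higher in Dicer KO in vehicle (adjusted p = 1.31e-08) and 1.51-fold higher after LPS (adjusted p = 2.6e-08), while its LPS increases of 0.43 and 0.36 on the log2 scale turned to -0.09 and -0.392 with library totals.

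Gclc (chr9:77754535-77794485, plus strand) encodes the catalytic subunit of glutamate-cysteine ligase, the enzyme that limits glutathione synthesis. It measured 23.4, 20.8 and 25.2 CPM in control vehicle and 22.6, 24.5 and 23.6 in Dicer KO vehicle, and these groups overlapped. After LPS it measured 8.12, 8.72 and 8.31 CPM in control and 4.43, 4.66 and 5.12 in Dicer KO. The LPS groups lay apart from each other and below both vehicle groups. The fall with LPS was 2.76-fold in control (adjusted p = 1.79e-11) and 4.97-fold in Dicer KO (adjusted p = 1.28e-13). These responses differed by -0.85 ± 0.14 on the log2 scale (adjusted p = 0.000147), and Dicer KO was 1.77-fold below control after LPS (adjusted p = 1.01e-05). In vehicle the genotypes differed by 0.03 ± 0.08 on the log2 scale (adjusted p = 0.804), which turned in sign with library totals and without control vehicle replicate 2, where it was -0.1 and -0.046.

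Gclm (chr3:122245557-122270732, plus strand) encodes the modifier subunit of the same ligase, and it too fell with LPS. Control libraries measured 68.8, 59.4 and 53.7 CPM in vehicle and 23.1, 28.1 and 22.9 in LPS. Dicer KO libraries measured 73.1, 76.0 and 67.4 CPM in vehicle and 19.3, 21.6 and 24.0 in LPS. The genotypes overlapped under both treatments. LPS lowered Gclm 2.45-fold in control (adjusted p = 7.6e-09) and 3.33-fold in Dicer KO (adjusted p = 2.74e-10), with a difference of -0.44 ± 0.15 on the log2 scale between the responses (adjusted p = 0.0298). Leaving out 1 library ended that call for replicate 2 of control vehicle (adjusted p = 0.0597), of control LPS (0.0823) and of Dicer KO vehicle (0.0527), and for replicate 1 (0.0853) or 2 (0.0592) of Dicer KO LPS, as did DESeq2's size factors (0.0515). In vehicle the 1.19-fold higher level in Dicer KO passed at an adjusted p of 0.0345, but not without control vehicle replicate 2 (0.101) or 3 (0.101), nor without Dicer KO vehicle replicate 1 (0.0764) or 2 (0.0978). It also missed the threshold with library totals (log2 0.123, adjusted p = 0.309) and with only the groups compared (0.0536). After LPS the genotypes differed by -0.19 ± 0.12 (adjusted p = 0.172, but 0.0467 with only the groups compared and 0.00108 with library totals). Exons of Gm17494 on the opposite strand overlap 4.71% of its exon bases and those of Gm6061 on the same strand 3.88%, and both measured under 1 CPM.

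Gsr (chr8:33652523-33698163, plus strand) encodes glutathione reductase, which returns oxidised glutathione to its reduced form, and it had the largest LPS increase of the 10 genes in control. The control libraries measured 33.5, 32.2 and 31.7 CPM in vehicle and 299, 315 and 287 in LPS. Those of Dicer KO measured 40.6, 47.0 and 43.2 CPM in vehicle and 238, 237 and 238 in LPS. Dicer KO was thus above control in vehicle and below it after LPS, with no overlap in either case. LPS raised Gsr 9.24-fold in control (log2 3.21 ± 0.06, adjusted p = 4.82e-19) and 5.45-fold in Dicer KO (log2 2.45 ± 0.06, adjusted p = 1.3e-17). The 2 responses differed by -0.76 ± 0.08 on the log2 scale (adjusted p = 1.33e-06). Between genotypes Gsr was 1.34-fold higher in Dicer KO in vehicle (adjusted p = 1.53e-05) and 1.26-fold lower after LPS (adjusted p = 2.83e-05).

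Txnrd1 and Srxn1 serve the thioredoxin and peroxiredoxin systems and responded to LPS in opposite directions. Txnrd1 (chr10:82833951-82897712, plus strand) encodes the cytosolic thioredoxin reductase. It measured 99.2, 96.2 and 111 CPM in control vehicle, 226, 264 and 223 in control LPS, 122, 149 and 125 in Dicer KO vehicle, and 201, 247 and 252 in Dicer KO LPS. The genotypes lay apart in vehicle and overlapped after LPS. Txnrd1 was 1.29-fold higher in Dicer KO in vehicle (adjusted p = 0.0101, but 0.0774 with library totals), and after LPS the difference was -0.03 ± 0.10 on the log2 scale (adjusted p = 0.838, but -0.382 and 0.00627 with library totals). LPS raised it 2.33-fold in control (adjusted p = 9.31e-08) and 1.77-fold in Dicer KO (adjusted p = 5.37e-06, but 0.536 with library totals). The difference of the responses, -0.40 ± 0.15, was at the threshold (adjusted p = 0.0499). It was lost when 1 library was left out, namely replicate 1 (0.108) or 2 (0.105) of control vehicle, 1 (0.0538) or 2 (0.107) of control LPS, 2 of Dicer KO vehicle (0.0941), or 1 of Dicer KO LPS (0.0866). With all 12 libraries it was also lost in DESeq2 (0.0529), with DESeq2's size factors in edgeR (0.0771) and with no filter on low counts (0.128), and without both libraries that stood apart it reached 0.0589.

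Srxn1 (chr2:152105516-152111376, plus strand) encodes sulfiredoxin, which repairs over-oxidised peroxiredoxins. In vehicle it measured 105, 103 and 111 CPM in control and 152, 167 and 153 in Dicer KO. After LPS it measured 53.7, 59.4 and 51.7 CPM in control and 51.9, 62.3 and 61.8 in Dicer KO. The vehicle groups lay apart, and the LPS groups overlapped below them. Srxn1 was 1.48-fold higher in Dicer KO in vehicle (adjusted p = 1.41e-06), and after LPS the difference was 0.09 ± 0.07 on the log2 scale (adjusted p = 0.284, but 0.0419 without Dicer KO LPS replicate 1, and -0.259 with library totals). LPS lowered it 1.93-fold in control (adjusted p = 2.76e-10) and 2.68-fold in Dicer KO (adjusted p = 6.01e-13), a difference of -0.47 ± 0.10 between the responses (adjusted p = 0.00102).

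Nqo1 (chr8:107388225-107403206, minus strand) encodes NAD(P)H quinone dehydrogenase, a textbook readout of NRF2, and it was scarce here, with 33 to 140 counts in a library. The values were 5.50, 4.60 and 5.52 CPM in control vehicle and 6.51, 6.54 and 6.30 in Dicer KO vehicle. With LPS they were 3.01, 2.97 and 2.67 CPM in control and 2.48, 3.08 and 4.90 in Dicer KO. The LPS groups overlapped, and the vehicle groups did not. LPS lowered Nqo1 1.81-fold in control (adjusted p = 0.000282) and 1.85-fold in Dicer KO (adjusted p = 0.000171), and these responses differed by -0.04 ± 0.26 (adjusted p = 0.934). Between genotypes the log2 difference was 0.31 ± 0.15 in vehicle (adjusted p = 0.108, but 0.0428 without Dicer KO LPS replicate 3). After LPS it was 0.27 ± 0.21 (adjusted p = 0.277), and -0.053 without Dicer KO LPS replicate 3.

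**Figure D4:**
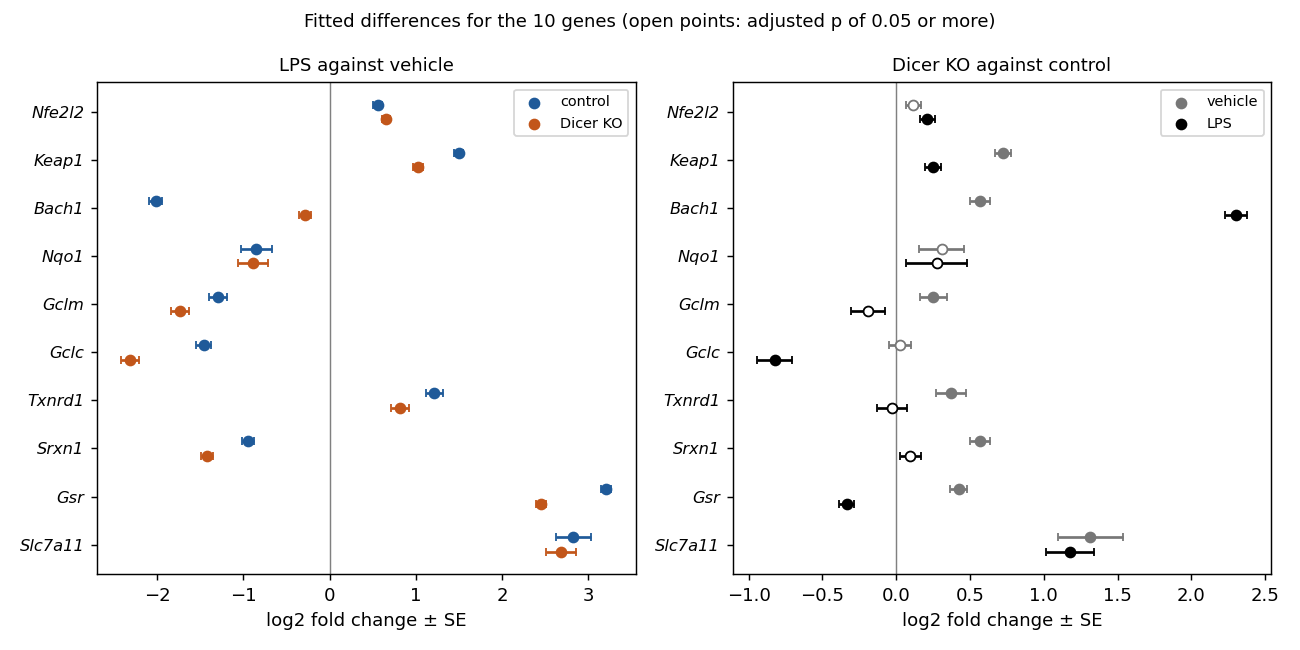
Fitted log2 fold changes with SE (horizontal axes) of the 10 genes, for LPS against vehicle in each genotype (left) and for Dicer KO against control under each treatment (right); open points did not pass an adjusted p of 0.05. Bach1 is the member whose 2 points lie farthest apart in both panels, at -2.02 and -0.28 on the left and at 0.57 and 2.30 on the right.

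Across the 10 genes the level per kb of exon ran from 0.401 CPM per kb for Slc7a11 to 67 for Nfe2l2 in control vehicle, followed below Nfe2l2 by Srxn1 at 37.7 and Bach1 at 29.4. In control LPS, Gsr at 109 ± 5.01 CPM per kb stood above Nfe2l2 at 98.7 ± 1.6, and Nqo1 was lowest at 1.86. Over the longest transcript Nfe2l2 was first there, at 151 against 112 for Gsr. In Dicer KO, Nfe2l2 was first with both treatments, at 72.6 and 114 CPM per kb, and Bach1 stood below Srxn1 in vehicle at 43.5 and below Gsr and Keap1 after LPS at 35.8 ± 2.36, within the spread of Keap1 at 38.3 ± 1.65.

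The profiles of Bach1, Nfe2l2 and Slc7a11 over the 12 libraries were each compared with those of 11440 tested protein-coding genes by Pearson's r of log2 CPM. This is a description in which the libraries of a group share genotype and treatment. Those most like Bach1 were Mmd (r = 0.9908), Epb41l2 (0.9887) and Abcg1 (0.9882), a cholesterol exporter of macrophages. Abcg1 measured 267 ± 9.38 CPM in control vehicle, 114 ± 7.11 in control LPS, 413 ± 23.7 in Dicer KO vehicle and 358 ± 14.6 in Dicer KO LPS, lowest in control LPS, as Bach1 was. The nearest to Nfe2l2 were Ndel1 (0.9978), Vav1 (0.996) and Gng12 (0.9958). The nearest to Slc7a11 were Il1f9 (0.9941), Flii (0.9936) and Top1 (0.9929). Il1f9 was scarce, with group means from 0.123 CPM in control vehicle to 4.66 in Dicer KO LPS, so its r rests partly on values near the floor.

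Hmox1 and Slc40a1, which are among the genes that BACH1 is known to repress, did not share 1 pattern. Hmox1, which encodes the heme-degrading enzyme heme oxygenase 1, measured 435, 402 and 400 CPM in control vehicle, 905, 1020 and 920 in control LPS, 378, 408 and 385 in Dicer KO vehicle, and 400, 433 and 458 in Dicer KO LPS. It was highest in control LPS, the group in which Bach1 was lowest. LPS raised Hmox1 2.3-fold in control (adjusted p = 2.71e-12), while in Dicer KO the log2 change was 0.14 ± 0.06 (adjusted p = 0.0526), and the responses differed by -1.06 ± 0.09 (adjusted p = 1.16e-07). The Dicer KO value depends on the scaling. Its raw counts there were 8128, 7928 and 8248 with vehicle and 5319, 5760 and 6077 with LPS. These libraries held 16172600 to 18084877 and 18671876 to 18785476 counts on genes, so Hmox1 was lower with LPS against library totals. Slc40a1, the iron exporter ferroportin, measured 131, 127 and 109 CPM in control vehicle and 456, 474 and 419 in Dicer KO vehicle. With LPS it measured 1.31, 1.7 and 1.3 CPM in control and 28, 25.8 and 28.5 in Dicer KO. It was therefore lowest where Bach1 was lowest, and 19-fold higher in Dicer KO than in control after LPS (adjusted p = 9.58e-14).

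The 34 tested of 36 other NRF2 targets showed no common direction beside the members. In vehicle 5 were higher and 11 lower in Dicer KO, and after LPS 9 were higher and 14 lower, with medians of -0.043 and -0.03, or 2 and 18, and 2 and 27, with library totals. Of all tested genes, 25.0% were higher and 21.2% lower in vehicle with TMM sizes, and 28.8% and 27.0% after LPS. Their medians were 0.008 and -0.026. LPS raised 9 and lowered 17 in each genotype, with medians of -0.145 in control and -0.173 in Dicer KO, or 5 and 25, and 4 and 29, with library totals. Of all tested genes, LPS raised 38.0% and lowered 41.1% in control with TMM sizes, and 37.4% and 42.7% in Dicer KO. Their medians were -0.056 and -0.102. The highest fold against vehicle was that of Marco, a scavenger receptor, from 8.01 to 237 CPM in control (adjusted p = 9.85e-20) and from 4.42 to 31.3 in Dicer KO (3.34e-15). Txn1, the substrate of Txnrd1, rose from 121 to 510 CPM in control and from 123 to 687 in Dicer KO (log2 2.08 and 2.48, adjusted p = 4.28e-16 and 3.47e-17). Prdx1, a peroxiredoxin that Srxn1 repairs, rose by 0.31 and 0.23 (adjusted p = 9.84e-05 and 0.00164), which turned to -0.209 and -0.517 with library totals. Sqstm1, whose product p62 competes with NRF2 for KEAP1, was higher in Dicer KO by 0.20 in vehicle (adjusted p = 0.0102, but 0.294 with library totals and 0.0684 without control vehicle replicate 2) and by 0.33 after LPS (adjusted p = 0.00013, but -0.022 with library totals), and 17.3% of its exon bases overlap Mrnip on the opposite strand.

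Slc7a11 is also a target of ATF4, the transcription factor of the amino acid response, so that list was described beside it. Atf4 itself differed between genotypes by 0.21 in vehicle (adjusted p = 0.0676) and by -0.001 after LPS (adjusted p = 0.996), and Atf3 was higher in Dicer KO by 0.36 and 0.52 (adjusted p = 1.16e-05 and 5.78e-08). Of 14 tested genes in that list, 6 were higher and 1 lower in Dicer KO in vehicle (median 0.157). After LPS 4 were higher and 7 lower (median -0.292), or 3 and 8 with library totals, while Slc7a11 was higher in Dicer KO under both treatments. Background shares over all tested genes with TMM sizes were 25.0% higher and 21.2% lower in vehicle, and 28.8% and 27.0% after LPS. The medians over all genes were 0.008 and -0.026. Sesn2, an antioxidant protein of that list, was higher in Dicer KO by 0.60 in vehicle and lower by 0.96 after LPS (adjusted p = 0.000339 and 3.7e-05). Among 23 tested glutathione, thioredoxin and peroxide genes other than the members, LPS raised 7 and lowered 15 in control and raised 8 and lowered 15 in Dicer KO (medians -0.445 and -0.506), or 4 and 18, and 4 and 17, with library totals. The 8 NADPH oxidase subunits, the source of the oxidative burst, had 6 higher and 2 lower with LPS in each genotype (medians 0.934 and 1.046), or 5 and 3 with library totals. For both lists the background with TMM sizes was 38.0% raised and 41.1% lowered by LPS in control, and 37.4% and 42.7% in Dicer KO. The medians over all genes were -0.056 and -0.102.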

How the data were processed

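The authors deposited unnormalized read counts, in whole numbers, for the Ensembl genes of 12 libraries, and the submitters' processing notes name STAR 2.5, DESeq2, mm10 and GRCm38.p5. Which program counted the reads, on which strand and with which annotation, is not given in the sources used here; the labels' protocol names a stranded mRNA kit. Rows that name no gene (unassigned reads, 45.8 to 46.8% without a feature) were left out. Of 46078 identifiers 45229 matched GENCODE M21, and the others held 0.141% of counts. From the counts, edgeR 4.0.16 (R 4.3.3) fitted all 12 libraries with TMM scaling, its default filter on low counts and robust quasi-likelihood, with a biological coefficient of variation of 6.3%. The fit was tested on simulated data. The 5 comparisons were Dicer KO against control under each treatment, LPS against vehicle within control and within Dicer KO, and their difference. Alternatives were DESeq2 1.42.0, other scalings, no filter, only the groups compared, a replicate term and each library left out. Genes named beside the members were fixed ones (such as Hmox1, the Maf genes and Slc3a2) and, from each list, up to 3 called genes a direction with the largest change and a mean of at least 5 CPM. The members and lists were chosen with earlier results of these data known. Same-numbered libraries were checked for pairing, which the check did not settle, and the main fit treated them as unpaired.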

Additional observations from a re-analysis of the deposited data

Results flagged for a closer look

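Over all tested genes, 33.7% were called by the edgeR interaction term, 14.9% positive and 18.8% negative. The LPS response differed between Dicer KO and control, by this term, in 7 of the 10 genes. As log2 differences (Dicer KO minus control) these were 1.73 for Bach1 (adjusted p = 2.1e-09), -0.76 for Gsr (1.33e-06), -0.47 for Keap1 (0.000132), -0.85 for Gclc (0.000147), -0.47 for Srxn1 (0.00102), -0.44 for Gclm (0.0298) and -0.4 for Txnrd1 (0.0499). The calls of Gclm and Txnrd1 were lost with DESeq2's size factors (0.0515 and 0.0771) and without any 1 of several libraries. Each of the 7 changed with LPS in the same direction in both genotypes, so that the differences are of size. The same term passed the threshold for genes named beside them. Among NRF2 targets the difference was 2.37 for Slc40a1, -2.06 for Marco, -1.06 for Hmox1 and 0.4 for Txn1 (0.174, adjusted p = 0.086, with library totals). Among regulators and partners it was 0.7 for Mafk, -0.55 for Mafg and -0.65 for Nfe2l1, a relative of NRF2. For Prdx2 (11.5% of its exon bases overlapped on the opposite strand) and Gpx1, which remove peroxides, it was 0.47 and -0.48, for Nupr1 and Sesn2 of the ATF4 list 0.96 and -1.56 (Nupr1 missed the threshold, at an adjusted p of 0.0522, when replicate 2 of Dicer KO vehicle was left out), and for Cybc1, a chaperone of the NADPH oxidase, 0.27 (0.045, adjusted p = 0.631, with library totals).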

How the results depend on the processing

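Over 940 refitted values of the 10 genes, 885 kept their direction and their side of the threshold, 21 turned in sign, 26 lost and 8 gained a call, and the members' count of calls stayed within 1.5 times in every alternative. Scaling to library totals turned Nfe2l2 and Gclc in vehicle between genotypes (-0.011, -0.1), Nfe2l2, Keap1, Nqo1 and Srxn1 after LPS (-0.143, -0.102, -0.079, -0.259), and Nfe2l2 for LPS in Dicer KO (-0.094) and for the difference of responses (-0.132). It also turned Cyba, Cul3 and Sqstm1 between genotypes after LPS (-0.057, -0.23, -0.022), Prdx1, Slc3a2 and Atf3 for LPS in control (-0.209, -0.09, -0.044), and Mafg, Mafk, Sqstm1, Prdx1, Slc3a2, Atf4 and Atf3 for LPS in Dicer KO (-0.588, -0.061, -0.529, -0.517, -0.392, -0.344, -0.108). The cause was not tested. Gclc in vehicle was -0.005 with no filter on low counts. Txnrd1 after LPS was 0.025 with DESeq2's size factors in edgeR and 0.02 in DESeq2, and the Nqo1 difference of responses was 0.014 and 0.007. Leaving out 1 library at a time gave -0.046 to 0.09 for Gclc in vehicle, -0.053 to 0.467 for Nqo1 and -0.088 to 0.068 for Txnrd1 after LPS, and -0.365 to 0.156 for Nqo1 and -0.293 to 0.037 for Slc7a11 in the difference of responses. Without both libraries that stood apart, an alternative chosen after seeing the data, 6, 6, 10, 10 and 6 of the 10 genes were called in the 5 comparisons, against 7, 6, 10, 10 and 7. The main fit called 46.2%, 55.8%, 79.1%, 80.1% and 33.7% of all tested genes in these comparisons. The stricter element TGACNNNGCA, held by 3.04% of promoters, left 1 member (Txnrd1). With the replicate number as a block (replicate block), 7, 6, 10, 10 and 7 genes were called. Whether equal numbers mark paired libraries could not be told. Of 18 same-numbered pairs 4 had deviations correlated above 0.1 (-0.232 to 0.182), as did 2 of 36 pairs with different numbers (-0.317 to 0.342). A library correlated best with its own number in 13 of 36 cases (a library and another group). Nqo1 had 33 to 140 counts in a library, which limits the precision of its values.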
